A study of Mus musculus with 18 samples.

Results

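C/EBPα binding in pre-B cells was compared at 3 and 12 h after induction in 200-bp windows of the mouse genome. C10 cells are a pre-B line derived from HAFTL cells that carry an inducible C/EBPαER fusion protein, a C/EBPα joined to the estrogen receptor and tagged with GFP. The hormone activates the fusion, after which the pre-B cells take on a macrophage fate. All libraries came from this line, 1 of each factor and time point, and the induced cells received β-estradiol (100 nM per the labels) with IL-3 and CSF-1. The 3 hpi (hours post induction) and 12 hpi libraries were made with the same C/EBPα antibody (sc-61) and read on the same type of sequencer. Fusion and endogenous C/EBPα cannot be told apart with it. The labels name no separate cultures, so values are descriptions with counting intervals, and no test, SD or p-value can be had.

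C/EBPα is a basic leucine zipper factor that helps to set up the myeloid program, opening enhancers together with the ETS factor PU.1. C/EBPβ is its close relative and binds the same letters, TTGCNNAA in the form searched here. EBF1, with PAX5 and other factors, holds the B cell program in place in pre-B cells, and AP-1 proteins are leucine zipper factors that act in growth and inflammatory signalling.

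Members were the bins on chromosomes 1 to 19 with 8 or more reads in either library. Each read counted once per position and strand, its 5′ end was moved 75 bp inward, and 5832857 of the 10842274 reads of the 3 hpi library were drawn to equal the 12 hpi library. This gave 29365 bins of 12361703. Of these, 10409 held 8 or more reads in both libraries, 11787 at 3 hpi alone and 7169 at 12 hpi alone. A bin held 0.472 reads on average over the genome, against a median of 10.0 reads at 3 hpi and 8.0 reads at 12 hpi in the members. Bins just inside the threshold, with 8 reads in the higher library, held the C/EBP consensus in 18.3% of 5197 cases, and bins just outside it, with 7 reads, in 15.0% of 8447.

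Both libraries were searched for the C/EBP consensus, which stood in 9.28% of all bins without undetermined bases. Among bins at or above 13.7 reads per 10 M (10000000) reads, the level that 8 reads make at this depth, 31.0% held it in the full 3 hpi library and 23.4% in the 12 hpi library. In the C/EBPα library at 0 hpi only 1712 bins reached that level, against 20158 at 3 hpi and 17578 at 12 hpi. The consensus was in 35.1% of such bins at 0 hpi, and in 34.3% and 25.6% in the C/EBPβ libraries at 3 and 12 hpi. The letters can therefore not tell C/EBPα from C/EBPβ. For both factors their share was lower at 12 hpi than at 3 hpi. For C/EBPα the share at 0 hpi was above both, so it does not put the time points in order. The fragment length read from the distance between strands was 105 bp at 3 hpi and 157 bp at 12 hpi. The background of the 12 hpi library was also richer in G+C, 46.1% against 45.0%, and this shift is followed through the results.

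More bins were higher at 3 hpi than at 12 hpi. With 1 read added to each count, 10732 bins (36.5%) were at least 2-fold higher at 3 hpi, 5613 (19.1%) at least 2-fold higher at 12 hpi, and 13020 lay within 2-fold. A 4-fold difference was reached by 4419 bins (15.0%) towards 3 hpi and by 1798 (6.12%) towards 12 hpi. The median log2 ratio of 12 over 3 hpi was -0.45 over all members and -0.14 over bins with 8 or more reads in both. Members took up 7.29% of reads at 3 hpi and 5.88% at 12 hpi. The size and direction of the excess depended on the bins taken. The 2 shares were 37.5% and 12.5% in bins of 12 or more reads, 36.1% and 10.2% in bins of 16 or more, and 28.6% and 26.6% in 400-bp bins. In bins chosen by the C/EBPα library at 60 min they were 41.6% and 5.63%, and in bins chosen by the C/EBPα library at 24 hpi they were 9.65% and 22.1%.

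**Figure D1:**
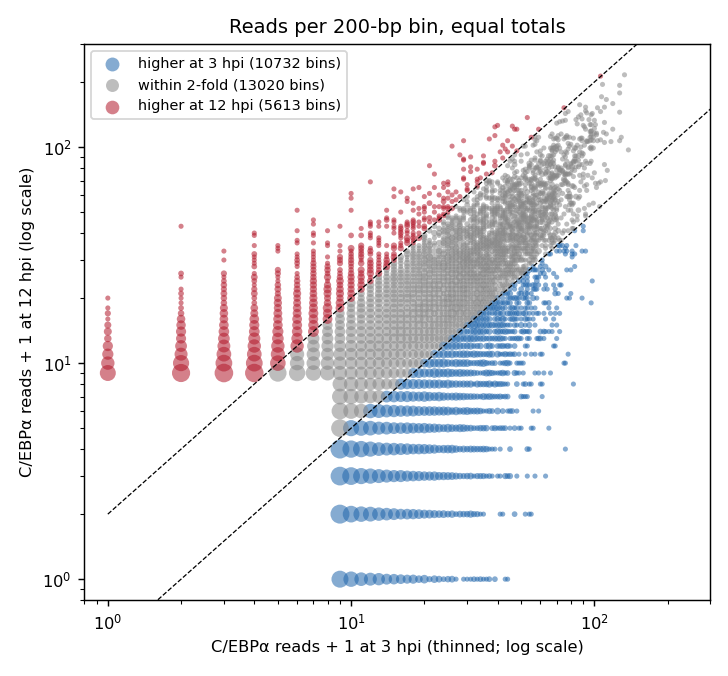
C/EBPα reads plus 1 per member bin at 3 hpi (x axis, thinned library) and 12 hpi (y axis), both on log scales; each point is a pair of counts, its area grows with the number of bins, and dashed lines mark a 2-fold difference. The highest counts, up to 137 reads at 3 hpi and 215 at 12 hpi, lie within or near the band between the lines, and most bins outside it are of low or middle height.

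Because the drawn reads also chose the bins, the 5009417 reads of the 3 hpi library that were not drawn gave a second reading. Scaled to the same depth, 72.0% of the bins higher at 3 hpi (95% Clopper-Pearson interval 71.1 to 72.8) were again at least 2-fold higher at 3 hpi, and 95.6% kept the direction. Of the bins higher at 12 hpi, 72.6% (71.4 to 73.8) kept the 2-fold difference and 97.5% the direction. Over all members the 2-fold share at 3 hpi was 28.9% with the undrawn reads, and that at 12 hpi 19.9%. These are reads of the same library, so they cover drawing and counting error and not a new culture. The 12 hpi reads had no such second reading.

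Sites are named by the nearest protein-coding gene, with 1 bin per gene and run of adjacent bins, so bins more than 100 kb from any start are left out even where they held more reads. Of the sites so named, those with the most reads at 3 hpi among bins at least 4-fold lower at 12 hpi lay far from promoters for the most part. The bin nearest to Ptgir, which encodes the prostacyclin receptor, lies 6.14 kb upstream of it in intergenic DNA. The bin nearest to Plxnc1, a semaphorin receptor, lies 88.3 kb upstream. The named bins with the most reads at 12 hpi among those at least 4-fold higher at that time lay 69.1 kb downstream of Myc, the proliferation factor, and 41.7 kb upstream of Comtd1. Among bins within 1.5-fold, the one 70.4 kb upstream of Jmjd1c, in an intron of Reep3, was printed as an example of a site bound at both times. Their sequences (mm9, plus strand, read from the NCBIM37 genome) show in capitals each match to a searched motif.

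Ptgir, higher at 3 hpi, chr7:17485601-17485800: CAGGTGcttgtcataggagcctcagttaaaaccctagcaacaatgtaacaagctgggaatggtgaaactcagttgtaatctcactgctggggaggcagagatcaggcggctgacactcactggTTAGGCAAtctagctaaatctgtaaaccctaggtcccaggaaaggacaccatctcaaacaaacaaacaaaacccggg
Plxnc1, higher at 3 hpi, chr10:94495401-94495600: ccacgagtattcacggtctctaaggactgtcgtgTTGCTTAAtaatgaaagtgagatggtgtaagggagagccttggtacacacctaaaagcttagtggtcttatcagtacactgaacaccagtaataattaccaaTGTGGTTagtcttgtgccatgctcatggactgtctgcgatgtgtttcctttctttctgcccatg
Myc, higher at 12 hpi, chr15:61888001-61888200: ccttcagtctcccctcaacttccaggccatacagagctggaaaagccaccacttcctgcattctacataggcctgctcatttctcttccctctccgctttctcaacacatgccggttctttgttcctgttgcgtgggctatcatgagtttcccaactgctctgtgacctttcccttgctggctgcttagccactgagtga
Comtd1, higher at 12 hpi, chr14:22709801-22710000: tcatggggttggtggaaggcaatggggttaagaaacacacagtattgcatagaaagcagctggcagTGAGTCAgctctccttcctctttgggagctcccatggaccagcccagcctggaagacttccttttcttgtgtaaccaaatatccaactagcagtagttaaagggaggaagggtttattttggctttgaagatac
Jmjd1c, within 1.5-fold, chr10:66488401-66488600: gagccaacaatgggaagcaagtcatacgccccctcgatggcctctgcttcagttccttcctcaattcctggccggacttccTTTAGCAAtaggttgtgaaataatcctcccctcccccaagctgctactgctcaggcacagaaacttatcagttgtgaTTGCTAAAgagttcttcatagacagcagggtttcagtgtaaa

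The capitals mark a C/EBP consensus in both bins higher at 3 hpi, with an E-box (CACCTG or its complement CAGGTG) in the Ptgir bin and a RUNX match (TGTGGTT) in the Plxnc1 bin. The Comtd1 bin holds an AP-1 match (TGACTCA or TGAGTCA) and no match to TTGCNNAA. The Myc bin holds none of the searched letters, which says nothing of other forms of a site. The Jmjd1c bin holds the C/EBP consensus at 2 places.

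At the Ptgir bin C/EBPα stood at 5.78 reads per 10 M at 0 hpi, 10.3 at 10 min, 96.5 at 30 min, 119 at 60 min, 158 at 3 hpi, 39.4 at 12 hpi, 28.4 at 24 hpi and 18 at 48 hpi. In thinned reads this was 97 at 3 hpi (exact Poisson 95% interval 78.7 to 118) and 23 at 12 hpi (14.6 to 34.5), 4.22 times lower as the plain ratio of reads (2.66 to 6.96), the form given for single bins, and a log2 ratio of -2.03 on reads plus 1, the form that sets the classes. The undrawn 3 hpi reads gave 86.2 at the same depth, and folds with them are on reads plus 1 (3.63 here). C/EBPβ at this bin went from 82.7 at 3 hpi to 10.6 at 12 hpi on the per 10 M scale, and PU.1 stayed at or below 9.35 in every PU.1 library. With the undrawn reads 6 of the 8 named bins of this group stayed past 4-fold, and Ptgir and Numb (3.95) fell just short. C/EBPα was highest at 3 hpi at the Ptgir bin and lower, but still above 13.7, in each later library, and PU.1 was low throughout.

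The Plxnc1 bin was also highest at 3 hpi among C/EBPα libraries, with 96 thinned reads at 3 hpi and 18 at 12 hpi, 5.33 times lower (3.20 to 9.38). C/EBPα there reached 161 reads per 10 M at 3 hpi and was listed at 0.0 at 48 hpi, and C/EBPβ went from 82.7 at 3 hpi to 4.04 at 48 hpi. In an intron of Numb, which encodes an inhibitor of Notch signalling, C/EBPα had 88 thinned reads at 3 hpi and 19 at 12 hpi. C/EBPβ at the Numb bin was 109 reads per 10 M at 3 hpi, 42.5 at 12 hpi, 69.1 at 24 hpi and 97.1 at 48 hpi, so this bin was high for C/EBPβ again where C/EBPα was not.

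The steepest loss among the 8 named bins was 69.7 kb downstream of Oxsm, a mitochondrial fatty acid synthesis enzyme, with 75 thinned reads at 3 hpi and 3 at 12 hpi, a ratio of 0.0400 (0.00807 to 0.121). At 55.2 kb upstream of Chst1, a sulfotransferase gene, the counts were 81 and 7, 11.6 times lower (5.37 to 29.7). The other bins of this group were nearest to Gm17706 (in an intron of Itpr2, an inositol trisphosphate receptor; 77 and 10 reads), Zcchc7 (75 and 9) and Ehhadh, a peroxisomal enzyme (71 and 13). In the 3 named bins at Chst1, Oxsm and Zcchc7 the level at 30 min (153, 140 and 184 reads per 10 M) was above that at 3 hpi (150, 118 and 117), though on another sequencer. The bins at Numb and Gm17706 were far lower at 30 min (15.8 and 7.12) than at 3 hpi (143 and 131).

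At the Myc bin C/EBPα was at 5.79 reads per 10 M or below from 0 hpi to 60 min, then 25.8 at 3 hpi, 108 at 12 hpi, 123 at 24 hpi and 85.0 at 48 hpi. The thinned counts were 14 (7.65 to 23.5) and 63 (48.4 to 80.6), 4.50 times higher at 12 hpi as the plain ratio (2.49 to 8.70), with a log2 ratio of 2.09 on reads plus 1. C/EBPβ at the bin was 10.6 at 3 hpi, 49.6 at 12 hpi and 78.9 at 24 hpi, and PU.1 was 6.24 at 3 hpi, 34.4 at 12 hpi and 42.1 at 48 hpi. All 3 factors were thus higher here in each library from 12 hpi on than at 3 hpi.

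The undrawn 3 hpi reads gave 16.3 at the Myc bin, a fold of 3.70 on reads plus 1. The Comtd1 bin went from 9 to 60 thinned reads (6.67 times higher, 3.29 to 15.3), and the bin 33.3 kb upstream of Pid1, an adaptor of insulin signalling, from 9 to 57. The undrawn 3 hpi reads gave 11.6 at the Comtd1 bin and 21.0 at the Pid1 bin, which left folds of 4.82 and 2.64. In an intron of Zyx, which encodes the focal adhesion protein zyxin, the counts were 8 and 42, and PU.1 went from 14.0 to 50.7 reads per 10 M between 3 and 12 hpi. In an intron of Ncf4, which encodes the p40 subunit of the phagocyte NADPH oxidase, C/EBPα went from 9 to 50 thinned reads and PU.1 from 23.4 to 94.6 per 10 M. PU.1 and C/EBPα were thus both higher at 12 hpi at the Zyx and Ncf4 bins, where the undrawn 3 hpi reads gave 5.82 and 14.0 (folds of 6.30 and 3.41). In an intron of Emilin2, an extracellular matrix gene, the thinned counts were 5 and 40, but the undrawn 3 hpi reads gave 23.3, a fold of 1.69. With the undrawn reads 4 of the 8 named bins higher at 12 hpi thus fell below the 4-fold difference that chose them (Myc, Pid1, Ncf4 and Emilin2), and Emilin2 below 2-fold.

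The bin 34.6 kb downstream of Fgd2, an activator of the GTPase Cdc42, differed from those. PU.1 was at 91.5 reads per 10 M there at 0 hpi and 142 at 3 hpi, while C/EBPα went from 5 to 50 thinned reads (9.32 in the undrawn 3 hpi reads). The bin 2.43 kb downstream of the start of BC049730 held 1 read at 3 hpi and 42 at 12 hpi (plain ratio 42.0, 7.14 to 1700, and a log2 ratio of 4.43 on reads plus 1), but 5.82 in the undrawn reads at the same depth. PU.1 stayed at or below 6.86 there in every library.

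The strongest bins within 1.5-fold had more reads at 12 hpi than at 3 hpi in all 6 cases, though with the scaling for base composition described further on the log2 ratio at BC031781 turned from 0.19 to -0.01. They were nearest to Btbd19 (126 and 177 reads), Jmjd1c, a histone demethylase relative (111 and 165), Gm5614 (118 and 158), BC031781 (126 and 144), Slc7a5, an amino acid transporter (109 and 152), and Mafg, a small MAF partner of leucine zipper factors (102 and 151). The Gm5614 bin was already high without induction, with 199 C/EBPα reads per 10 M at 0 hpi, against 179 at 3 hpi and 271 at 12 hpi. PU.1 stood at 318 and C/EBPβ at 353 there at 0 hpi, and both were at 203 or above in each of their libraries. The Gm5614 bin held none of the searched letters. The 18 libraries include no input control, so reads not due to the antibodies could not be set apart there. The Btbd19 bin had 107 C/EBPα reads per 10 M at 0 hpi. The Mafg bin had 3.47 at 0 hpi and 112 at 60 min. Removal of repeats caps the highest bins, more so in the deeper 3 hpi library (2.52% repeats, against 0.0898% at 12 hpi). Its part in the counts of these 6 bins was not tested.

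C/EBPα libraries that took no part in choosing the classes followed their direction. Bins higher at 3 hpi averaged 18.3 C/EBPα reads per 10 M at 30 min and 21.0 at 60 min, and 5.47 at 24 hpi and 4.48 at 48 hpi. Bins higher at 12 hpi averaged 5.63 at 60 min, 13.8 at 24 hpi and 11.8 at 48 hpi. The median log2 ratio of 24 hpi over 60 min was -1.32 in the first class, -0.10 in bins within 2-fold and 1.05 in bins higher at 12 hpi. The 60 min library was read on another sequencer than the later ones, and its background was poorer in G+C than that of the 24 hpi library (43.4% against 45.8%), so time and library cannot be told apart in that ratio. In bins within 2-fold the median ratio went from -0.43 below 45% G+C to 0.30 at 55% and over. Within these 4 G+C classes it lay between -1.56 and -0.63 in bins higher at 3 hpi and between 0.97 and 1.08 in bins higher at 12 hpi. Not all bins of a class had the same course. The level of 13.7 was reached at 60 min by 47.5% of bins higher at 3 hpi, against 41.5% of all members and 50.7% of bins within 2-fold. At 24 hpi it was reached by 29.1% of bins higher at 12 hpi, against 28.2% and 45.7%. The mean of 13.8 in these bins at 24 hpi was likewise near the 13.4 of all members. Bins within 2-fold had a mean of 19.8 there.

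**Figure D2:**
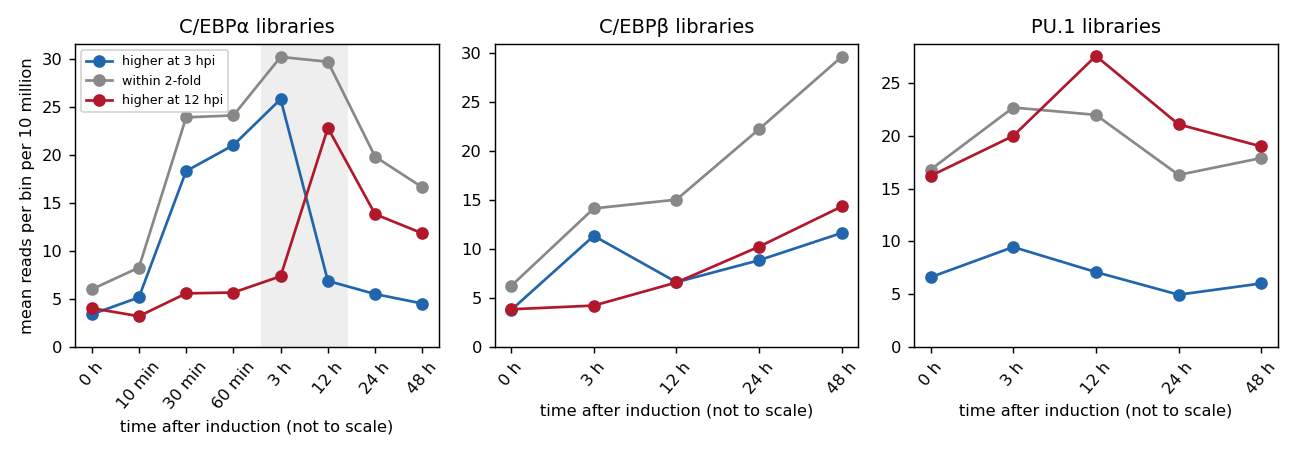
Mean reads per 200-bp bin per 10 M reads (y axis) in each library, by factor, ordered by time after induction (x axis, not to scale; 10, 30 and 60 min were read on another sequencer), for the 3 classes of bins; the shaded libraries made the classes. In the C/EBPα libraries the class higher at 3 hpi is low again at 24 and 48 hpi (5.47 and 4.48), and the class higher at 12 hpi is above it there (13.8 and 11.8).

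C/EBPβ was lower at 12 hpi than at 3 hpi in the bins where C/EBPα was. In bins higher at 12 hpi its mean was higher, while its median ratio differed between G+C classes and rested on few reads per bin. Its median log2 ratio of 12 over 3 hpi was -0.71 in bins higher at 3 hpi for C/EBPα and 0.01 in the other 2 classes. In bins higher at 12 hpi this median was 0.72, 0.56 and 0.45 in the 3 G+C classes below 55% and 0.00 at 55% and over. The difference between the 2 outer classes, 0.71 here, was 1.5 among bins of 12 or more reads and 1.68 among those of 16 or more. The mean level in bins higher at 3 hpi went from 11.3 to 6.57 reads per 10 M and back to 11.6 at 48 hpi, and in bins higher at 12 hpi from 4.18 to 6.54 and on to 14.3 at 48 hpi. In bins within 2-fold C/EBPβ was higher in each later library, with means of 14.1, 15.0, 22.2 and 29.6 at 3, 12, 24 and 48 hpi. These libraries held between 2824293 and 5685450 reads, so a single bin's C/EBPβ value rests on few reads. In bins higher at 12 hpi the median C/EBPβ level was 3.52 reads per 10 M at 3 hpi and 3.54 at 12 hpi. The lower quartile at 12 hpi was 0.0. Class medians of the ratio thus rest on few reads per bin too, and a median near 0.00 cannot show that C/EBPβ was unchanged.

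Without induction, PU.1 was rarer in bins higher at 3 hpi than in the other 2 classes, whose intervals overlapped. At 0 hpi PU.1 reached 13.7 reads per 10 M in 9.31% of bins higher at 3 hpi (8.77 to 9.87), in 26.2% of bins within 2-fold (25.5 to 27.0) and in 25.4% of bins higher at 12 hpi (24.3 to 26.6). From 3 to 12 hpi the share changed from 16.1% to 11.8% in bins higher at 3 hpi and from 34.8% to 51.7% in bins higher at 12 hpi. The median log2 ratio of PU.1 at 12 over 3 hpi was -0.20 in the first and 0.61 in the latter. At 55% G+C and over these were 0.14 and 0.71, with 0.48 in bins within 2-fold. The background of the PU.1 library was richer in G+C at 12 hpi than at 3 hpi, 45.0% against 44.3%. Read the other way, C/EBPα was at least 2-fold higher at 3 hpi in 46.5% of the 17618 bins with under 5 PU.1 reads per 10 M at 0 hpi and in 13.6% of the 987 bins with 80 or more. In each of the 5 PU.1 libraries, at most 16.1% of the bins higher at 3 hpi reached the level of 13.7.

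Sites that were strong at 24 hpi were hardly ever higher at 3 hpi. Of the 412 members with 80 or more C/EBPα reads per 10 M at 24 hpi, 0 were at least 2-fold higher at 3 hpi, which allows a share of up to 0.728% (3 counts of the total). Of these members 65 (15.8%) were higher at 12 hpi, below the 19.1% of all members, and their summed reads had a log2 ratio of 12 over 3 hpi of 0.47. Of the 9136 members below 5 at 24 hpi, 67.4% were higher at 3 hpi and 13.2% higher at 12 hpi. The share higher at 12 hpi was 23.1% from 5 to 10 and fell to 17.6% from 40 to 80. Of the 1034 members with 80 or more reads per 10 M at 60 min, 320 (30.9%) were higher at 3 hpi and 4 (0.387%) higher at 12 hpi. The outcome for bins strong at 60 min was therefore mixed. A member strong at 24 hpi had to hold reads at 3 or 12 hpi to be counted here.

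Base composition moved with the direction. Bins higher at 3 hpi averaged 45.0% G+C, bins within 2-fold 49.5% and bins higher at 12 hpi 56.5%. Below 40% G+C, 66.6% of bins were higher at 3 hpi and 2.99% higher at 12 hpi, and at 60% and over these shares were 4.06% and 60.3%. The background, counted more than 1 kb from any member, moved the same way, with a log2 ratio of 12 over 3 hpi from -0.25 in the lowest to 0.65 in the highest of these classes, against -1.12 and 0.88 in the members. With the 12 hpi reads divided by the background ratio of each G+C class, and members chosen anew from the scaled reads (25331 bins), the shares became 43.0% higher at 3 hpi and 8.44% higher at 12 hpi. The part of the library's base composition in the bins higher at 12 hpi was not tested beyond this scaling, and motif shares and gene lists are given with G+C classes or the scaling where these changed the picture.

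**Figure D3:**
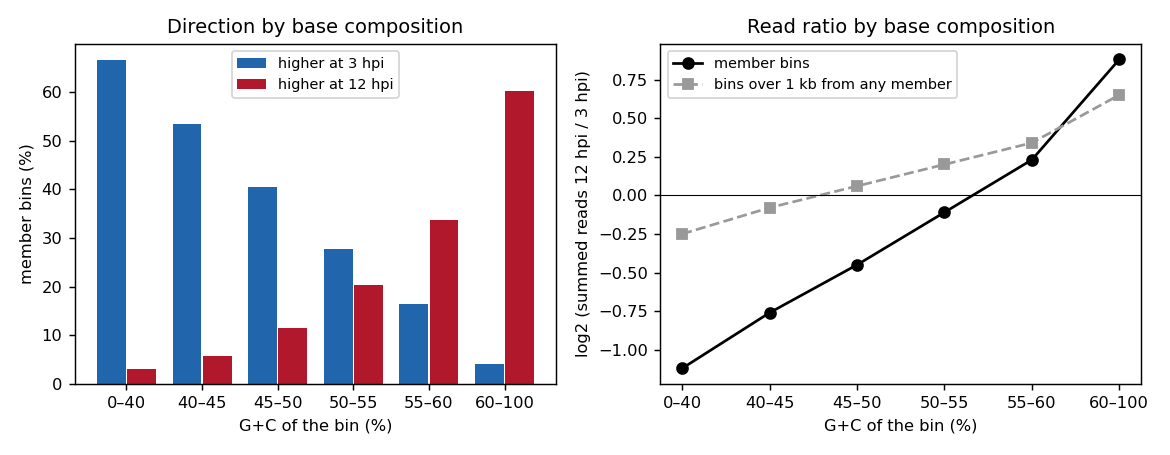
Left, percent of member bins at least 2-fold higher at 3 hpi or 12 hpi in classes of G+C content; right, log2 ratio of summed reads at 12 over 3 hpi in member bins and in bins more than 1 kb from any member. The share higher at 12 hpi grows from 2.99% to 60.3% with G+C, and the background ratio grows from -0.25 to 0.65.

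Promoters were a large part of the bins higher at 12 hpi. A protein-coding start lay within 1 kb of 35.6% of them (34.3 to 36.8), against 14.8% (14.2 to 15.4) of bins within 2-fold and 7.31% (6.83 to 7.82) of bins higher at 3 hpi. The GC box GGGCGG, a promoter element, was in 21.6%, 8.17% and 3.31% of them (2.01% of all bins), and the ETS form common at promoters, CCGGAAGT, in 2.87%, 0.937% and 0.317% (0.124% of all bins). The promoter share of bins higher at 12 hpi was 41.6% at 8 to 11 reads in the higher library, 28.7% at 12 to 19 and 15.1% at 20 or more. In bins within 2-fold it was 18.2%, 13.9% and 11.2%, so the gap was small among bins of 20 or more reads. The GC box share of bins higher at 12 hpi fell likewise, from 25.3% to 11.3%. In bins within 2-fold it was 9.49% and 6.62%, and in bins higher at 3 hpi 3.71% and 2.72%. The promoter difference lay in the G+C-rich bins. At 55% G+C and over, promoters made up 58.0% of bins higher at 12 hpi and 21.3% of those higher at 3 hpi, and between 45% and 50% G+C they made up 6.55% and 6.59%. The class of 55% and over is wide and does not match the 2 directions for G+C. From 55% to 60%, 16.4% of bins were higher at 3 hpi and 33.8% higher at 12 hpi. At 60% and over these shares were 4.06% and 60.3%. This limit holds for each share given for the class of 55% and over, also those of motifs.

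The C/EBP consensus was rarer in bins higher at 12 hpi. It was in 31.8% of bins higher at 3 hpi (30.9 to 32.7), 26.2% of bins within 2-fold (25.4 to 26.9) and 12.5% of bins higher at 12 hpi (11.6 to 13.4), against 9.28% of all bins. The palindrome TTGCGCAA, the optimal C/EBP letters and a part of the consensus, was in 1.45%, 1.34% and 0.143%, against 0.0162% of all bins, and the C/EBP-ATF composite TTGCATCA in 3.75%, 3.17% and 0.980%, against 0.617%. Within G+C classes the gap was small at the low end and wide at the high end. It was 36.1% against 31.7% below 45% G+C, with overlapping intervals, and 19.2% against 6.35% at 55% and over. It was also narrower among bins with 20 or more reads in the higher library, with 38.7% in bins higher at 3 hpi and 28.3% in bins higher at 12 hpi.

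PU.1 letters went the other way. GAGGAAGT was in 2.66% of bins higher at 3 hpi (2.36 to 2.98), 6.21% of bins within 2-fold and 7.14% of bins higher at 12 hpi (6.48 to 7.85), against 1.20% of all bins. Below 45% G+C the shares were 2.81% and 11.0%, between 50% and 55% they were 2.16% and 11.7%, and at 55% and over 3.07% and 4.42%. The AP-1 letters TGACTCA were in 5.19%, 6.84% and 6.50% of the 3 classes, against 3.14% of all bins, and those of bins higher at 3 and at 12 hpi were 5.13% and 11.2% below 45% G+C but 4.53% and 4.52% at 55% and over, where most bins higher at 12 hpi lay. PU.1 letters were thus more frequent in bins higher at 12 hpi in each G+C class, with overlapping intervals in the highest.

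The EBF1 letters TCCCNNGGG did not separate the classes when pooled and did so within G+C classes. Pooled, they were in 7.14% of bins higher at 3 hpi (6.66 to 7.64) and 7.73% of bins higher at 12 hpi (7.05 to 8.46), with overlapping intervals, against 1.87% of all bins. Within each of the 4 G+C classes they were more frequent in bins higher at 3 hpi: 3.86% against 2.14% below 45%, 7.91% against 3.95% from 45% to 50%, 11.9% against 5.75% from 50% to 55%, and 16.7% against 10.4% at 55% and over. The intervals overlapped in the lowest of these classes and not in the others. They count adjacent bins as independent, and the order within G+C classes was not tested on runs of adjacent bins. The E-box letters CACCTG, a form bound by E2A in B cells, were in 15.8% of bins higher at 3 hpi, 11.1% of those within 2-fold and 10.2% of those higher at 12 hpi, against 12.0% of all bins, and were more frequent in bins higher at 3 hpi in each G+C class (9.76% against 3.57% in the lowest, 32.2% against 12.4% in the highest). Letters of the RUNX family (TGTGGTT) were in 8.05%, 8.86% and 7.18%, against 4.73% of all bins. Those of GATA factors (AGATAA) were in 9.82%, 7.44% and 4.31%, each below the 13.2% of all bins. Within G+C classes the pooled RUNX order of bins higher at 3 and at 12 hpi turned, and the pooled GATA order was kept with smaller gaps. From 50% to 55% G+C, RUNX letters were in 7.02% of bins higher at 3 hpi and 9.58% of those higher at 12 hpi, and at 55% and over in 4.97% and 5.01%, with the same order and overlapping intervals in each G+C class. GATA letters were in 12.8% and 10.0% below 45%, and in 2.78% and 2.19% at 55% and over, with overlapping intervals in each G+C class. The NF-kB letters GGGANTTCC were in 0.764%, 1.17% and 1.66%, against 0.502% of all bins, and the CRE letters TGACGTCA in 0.335%, 0.576% and 1.07%, against 0.111%. The CRE order held at 55% G+C and over (0.292% and 1.80% of bins higher at 3 and at 12 hpi) and turned from 45% to 50% (0.482% and 0 of 886 bins) and from 50% to 55% (0.585% and 0.239%), with overlapping intervals in both. That of the NF-kB letters turned from 45% to 50% (0.932% and 0.790%, overlapping). All motifs were searched on both strands, and a match is a description of the letters, not of a bound site.

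**Figure D4:**
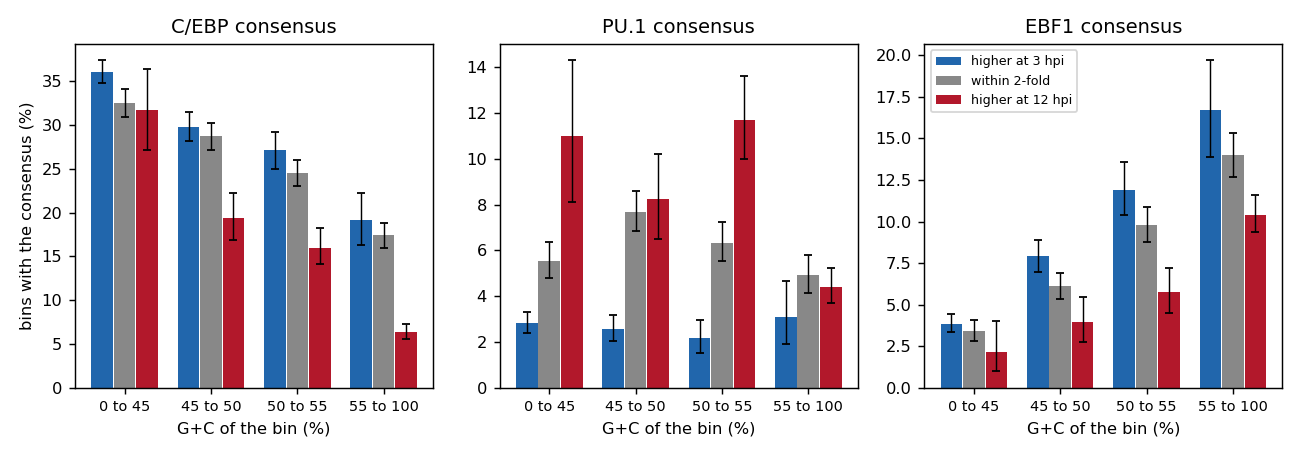
Percent of bins with the C/EBP, PU.1 or EBF1 consensus (y axes differ) in 4 classes of G+C content for each class of bins; error bars are 95% Clopper-Pearson intervals. The EBF1 share is higher in bins higher at 3 hpi in all 4 G+C classes (16.7% against 10.4% in the highest), and the PU.1 share is higher in bins higher at 12 hpi (11.7% against 2.16% from 50% to 55%); the intervals of these classes overlap for EBF1 in the lowest and for PU.1 in the highest G+C class.

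A nearest protein-coding start within 100 kb was found for 26263 bins, of which 35.4% were higher at 3 hpi and 19.9% higher at 12 hpi. With the same bins and the 12 hpi reads scaled for G+C, these shares were 36.1% and 14.1%, the background for the scaled counts of each list. Around the 13 listed regulators of the B lineage, 48 of 86 bins (55.8%) were higher at 3 hpi and 6 (6.98%) higher at 12 hpi. This split was nearly the same after the scaling for G+C, with 50 and 6 bins. Foxo1, a factor that upholds the pre-B program, had 5 of 5 bins higher at 3 hpi, led by a bin with 22 reads at 3 hpi and 4 at 12 hpi. Bach2, a repressor of myeloid genes, had 9 of 13, led by 67 and 22 reads in its intron. Irf4 had 6 of 8, with 20 and 13 reads at its leading bin, and Lef1 5 of 8. Ebf1 had 3 of 5, led by 17 and 3 reads in an intron. Pax5 had 3 of 8 bins higher at 3 hpi and 2 higher at 12 hpi, and its leading bin held 25 and 27 reads. Id3 (3 bins), Spib (1 bin) and Tcf3 (1 bin) had 0 bins higher at 3 hpi and 0 higher at 12 hpi. Erg, an ETS factor of blood progenitors, had 12 of 20 bins higher at 3 hpi and 0 higher at 12 hpi, but its leading bin held 54 and 51 reads. Ikzf1, which encodes Ikaros, had 2 of 9 bins higher at 3 hpi and 1 higher at 12 hpi, and its leading bin held 36 and 67 reads, within 2-fold. PU.1 at that Ikzf1 bin was 13.1 reads per 10 M at 0 hpi and 49.9 at 3 hpi.

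**Figure D5:**
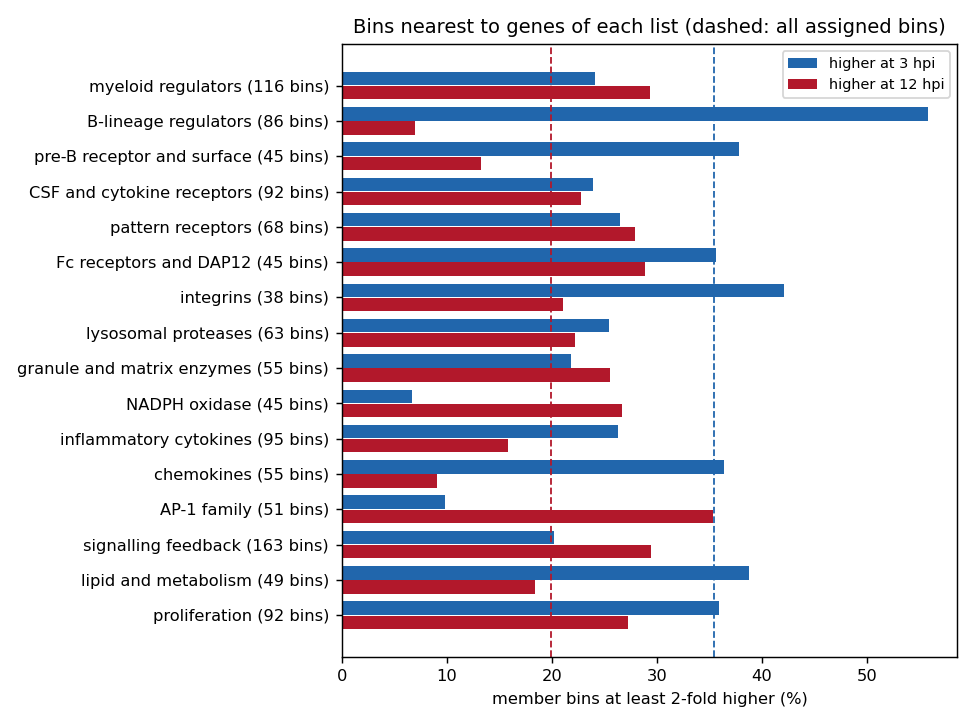
Percent of member bins nearest to the genes of each list (start within 100 kb) that were at least 2-fold higher at 3 hpi or at 12 hpi; dashed lines show the shares over all assigned bins, 35.4% and 19.9%. The B-lineage regulators stand at 55.8% and 6.98%, and the AP-1 family at 9.80% and 35.3%.

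Genes of the pre-B receptor and B cell surface had 17 of 45 bins higher at 3 hpi (37.8%) and 6 higher at 12 hpi (13.3%), or 18 and 3 after the scaling for G+C. With starts within 20 kb these were 8 (24.2%) and 5 (15.2%) of 33, below the 31.6% and 23.6% of all bins so assigned. Il7r, the receptor of the pre-B growth factor IL-7, had 7 of 8 bins higher at 3 hpi, led by 31 and 12 reads. Blk, a B cell kinase, had 3 of 3, and Igll1, a surrogate light chain gene, kept 58 and 50 reads at its leading bin. Dntt, which encodes terminal transferase, had 2 of 7 bins in each direction and held 29 and 22 reads at its leading bin. Cd79b had 2 of 3 bins higher at 12 hpi, led by 5 and 13 reads. Cd79a had 1 of 2 higher at 12 hpi, and its leading bin, with 11 and 19 reads, was within 2-fold. The only bin of Vpreb2 was higher at 12 hpi, with 3 and 8 reads.

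Around the listed myeloid regulators 28 of 116 bins (24.1%) were higher at 3 hpi and 34 (29.3%) higher at 12 hpi. After the scaling for G+C these were 30 (25.9%) and 17 bins (14.7%), the latter close to the scaled background. Cebpb had 15 of 35 bins higher at 12 hpi and 2 higher at 3 hpi, and its leading bin, 65.3 kb downstream at chr2:167579601-167579800, held 86 and 156 reads, 1.81 times higher (1.39 to 2.39). C/EBPβ itself at this bin was 52.8 reads per 10 M at 3 hpi, 60.2 at 12 hpi and 204 at 48 hpi. Sfpi1, which encodes PU.1, had 71 and 130 reads in an intron (log2 ratio 0.86, and 0.35 after the scaling), where PU.1 was already at 110 reads per 10 M at 0 hpi. Nfe2, a leucine zipper factor, held 91 and 152 reads near its start (0.73, and 0.22 after the scaling), and Runx1, a regulator of blood stem cells, 105 and 145. Runx1 also had 14 of 34 bins higher at 3 hpi. Irf8, a factor of monocytes and B cells, had 5 bins in each direction of 12, and its leading bin held 35 and 14 reads.

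The AP-1 family had 18 of 51 bins (35.3%) higher at 12 hpi, with 5 (9.80%) higher at 3 hpi. The scaling for G+C left 13 (25.5%) and 5 bins. Fosb had 5 of 8 bins higher at 12 hpi, led by 8 and 28 reads, and Batf3, a factor of dendritic cells, was led by 6 and 32 reads. Junb had 3 of 4, with 46 and 66 reads at its leading bin (log2 ratio 0.51, and 0.00 after the scaling), and Fos held 22 and 35. Fosl2 went the other way, with 3 of 5 bins higher at 3 hpi and 35 and 16 reads at its leading bin.

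The 6 listed genes of the phagocyte NADPH oxidase had 3 of 45 bins higher at 3 hpi (6.67%) and 12 higher at 12 hpi (26.7%), or 6 (13.3%) and 9 of 45 after the scaling for G+C. Of the 12, 5 lay at Ncf4 and 4 at Rac2, the GTPase of the complex. Ncf1, which encodes the p47 subunit, was strong at both times, with 99 and 121 reads (log2 ratio 0.29, and -0.05 after the scaling). Genes of signalling feedback had 33 of 163 bins higher at 3 hpi (20.2%) and 48 higher at 12 hpi (29.4%), or 37 (22.7%) and 34 (20.9%) after the scaling. Socs3, an inhibitor of cytokine signalling, had 8 of 15 higher at 12 hpi, and Tnfaip3, an inhibitor of NF-kB, held 24 and 68 reads at its leading bin. Socs2, of the same family as Socs3, had 5 of 7 bins higher at 3 hpi, led by 42 and 2 reads in an intron.

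Inflammatory cytokines had 25 of 95 bins higher at 3 hpi (26.3%) and 15 higher at 12 hpi (15.8%), or 27 and 12 after the scaling. Il1b, which encodes interleukin 1 beta, held 38 and 85 reads 10.8 kb from its start, and this bin had 6.84 C/EBPα reads per 10 M at 60 min and 126 at 24 hpi. Il6 and Ptgs2, the prostaglandin synthase gene, were high at both times, with 76 and 110 reads and with 94 and 133. Il12b had 7 of 14 bins higher at 3 hpi and 0 higher at 12 hpi. Chemokine ligands and receptors had 20 of 55 higher at 3 hpi (36.4%) and 5 higher at 12 hpi (9.09%), or 19 and 5 after the scaling, while the leading bin of Ccl2, a monocyte attractant, held 70 and 107 reads.

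The other lists are given with the shares of 35.4% and 19.9% over all assigned bins as background, and of 36.1% and 14.1% for counts after the scaling. Receptors for CSFs and cytokines had 22 of 92 bins (23.9%) higher at 3 hpi and 21 (22.8%) higher at 12 hpi, or 24 (26.1%) and 15 (16.3%) after the scaling for G+C, and 12 (21.8%) and 14 (25.5%) of 55 within 20 kb. Their leading bin, at Il6ra, held 83 and 133 reads, and its log2 ratio of 0.67 turned to -0.12 with the scaling (66.5% G+C). Pattern receptors had 18 (26.5%) and 19 (27.9%) of 68, or 16 (23.5%) and 14 (20.6%) after the scaling, led by Tlr2 with 99 and 132 reads. Fc receptors and DAP12 partners had 16 (35.6%) and 13 (28.9%) of 45, or 15 and 12 after the scaling. With starts within 20 kb the order turned, with 9 and 11 (36.7%) of 30 bins. Tyrobp, which encodes DAP12, held 56 and 30 reads.

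Integrins had 16 (42.1%) and 8 (21.1%) of 38 bins higher at 3 and at 12 hpi, or 16 and 4 after the scaling, with 38 and 12 reads at Itga4 and 32 and 48 at Itgax. Of the 16, 13 lay at Itga4 alone, which had 19 of the 38 bins. Lysosomal proteases had 16 (25.4%) and 14 (22.2%) of 63, or 16 and 13, led by Lgmn with 76 and 68 reads. Granule and matrix enzymes had 12 (21.8%) and 14 (25.5%) of 55, or 11 and 8 (14.5%) after the scaling. Camp, a granule peptide gene, held 46 and 91 reads, and Lyz1, a lysozyme gene, 86 and 73 (log2 ratio -0.23, and 0.06 with the scaling). Lipid and metabolism genes had 19 (38.8%) and 9 (18.4%) of 49, close to the background, or 19 and 10 (20.4%) after the scaling. Within 20 kb they had 15 (41.7%) and 5 (13.9%) of 36, against 31.6% and 23.6% of all bins so assigned. Plin2, a lipid droplet gene, held 50 and 100 reads, and Cd36, a scavenger receptor gene, 40 and 12. Genes of proliferation had 33 (35.9%) and 25 (27.2%) of 92, or 35 and 16 after the scaling, and 19 (27.1%) and 22 (31.4%) of 70 within 20 kb. Myb, a progenitor factor, had 11 of 13 bins higher at 3 hpi and 0 higher at 12 hpi. Its leading bin, in an intron, was within 2-fold and held 112 and 77 reads. Cdkn1a, which encodes the cell cycle inhibitor p21, held 35 and 74 reads at its leading bin.

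Single genes gathered many bins of 1 direction. Sgms1, a sphingomyelin synthase gene, had 22 of 45 bins higher at 3 hpi, and Mbnl1, a splicing factor gene, 20 of 27. Katnal1 and Rgs2 had 19 each, of 25 and 22 bins. Towards 12 hpi, Cebpb had 15 of 35 and Lrp1, a scavenger receptor gene, 15 of 19, with 213 and 379 summed reads. Zfp36l2, an mRNA decay factor gene, had 11 of 29 and Gm15319 12 of 29, the latter with 190 and 273 summed reads. These genes were named for their counts of bins in 1 direction, which are given without the scaling for G+C. Over all assigned bins 35.4% were higher at 3 hpi and 19.9% higher at 12 hpi.

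The largest count of bins towards 12 hpi, 29 of 241, was at Sfi1 on chromosome 11, a smaller part of its bins than the 19.9% over all assigned bins, and bins there also held reads without induction. The longest run of adjacent bins, 30 bins at chr11:3032001-3038000, averaged 24.6 C/EBPα reads per 10 M at 0 hpi, 20.4 at 3 hpi and 27.5 at 12 hpi. A run of 20 bins at chr17:39979801-39983800 averaged 89.4, 55.6 and 147. Without the bins that held 8 or more C/EBPα reads at 0 hpi at the same depth, 27597 bins were left, of which 37.9% were higher at 3 hpi and 19.8% higher at 12 hpi.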

How the data were processed

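Chromatin immunoprecipitation followed by sequencing had been run on C10 cells. The authors deposited 1 line per aligned read for each of 18 libraries of 3 factors, on mm9. The study's methods name ELAND or Bowtie, unique alignments without mismatches, and removal of identical reads. The labels list Bowtie and HOMER without versions. Labels and methods give different β-estradiol concentrations, and that of the labels is quoted.

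Reads on chromosomes 1 to 19 were counted once per position and strand (10842274 at 3 hpi, 2.52% repeats removed; 5832857 at 12 hpi), their 5′ ends moved 75 bp inward, and binned in 200 bp. The 3 hpi library was thinned by a random draw. Folds and log2 ratios that set classes are of reads plus 1 (per 10 M reads plus 2 for other libraries), and ratios of single bins with an interval are of reads as counted. Removal of repeats caps narrow, high peaks, more so in the deeper library. Intervals cover counting error only: exact Poisson for reads, Clopper-Pearson at 95% for shares and for the ratio of 2 counts. Those of shares count each bin as independent. The 29365 members form 19986 runs of adjacent bins, so these intervals can be too narrow. Starts and exons came from GENCODE vM1 (NCBIM37, the mm9 sequence), with each bin given to the nearest protein-coding start within 100 kb of its centre, and intron or UTR read at the bin centre. Genes were named by a fixed rule: the 8 bins with most reads among those 4-fold higher at each time, 6 within 1.5-fold, up to 4 leading genes per list, and 5 genes with most bins in each direction. Some genes that the rule names are not reported here. Other members of the lists were chosen after their values were seen. The bin at Btbd19, in a UTR, is not printed as sequence. The gene lists, motifs and members were chosen with earlier results of these data known. Alternatives covered the read minimum, bin size and offset, shift, draw, scaling, base composition and pseudocount. The binning and fold steps were tested on simulated data. The simulated folds were 4-fold changes at bins with many reads, so false 2-fold calls at bins near 8 reads were not tested. Python 3.11.15, NumPy 2.4.6, pandas 2.3.3 and SciPy 1.17.1 were used.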

Additional observations from a re-analysis of the deposited data

How the results depend on the processing

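With 1 library per time point, depth and counting error limit single bins, and G+C content and fragment length moved with time, so binding and library differences cannot be told apart there. No paired analysis was possible because each group holds 1 library. The direction of the C/EBP consensus difference and of the 3 readout differences between classes was kept in each of the 15 alternatives run for them. That of the EBF1 consensus was not. Its difference, higher at 12 hpi minus higher at 3 hpi, was 0.595 percentage points as reported, 2.24 with 400-bp bins and 1.90 with bins offset by 100 bp. It was -0.136 with runs, where only the bin with most summed reads was kept of each run of adjacent bins. With the 12 hpi reads scaled by G+C class, a scaling chosen after seeing the data, it was -1.65. The cause of the change with runs was not tested.

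The number of members was 15409 at 12 reads, 10182 at 16 reads and 44157 with 400-bp bins. The share higher at 3 hpi was 37.5% at 12 reads, 39.2% with all reads as deposited, 28.6% with 400-bp bins, 28.9% with undrawn reads, 32.2% with all 3 hpi reads scaled, 39.8% with background scaling, 32.8% with ratios centred on bins held in both libraries, 30.9% with a pseudocount of 3, 37.9% without bins held at 0 hpi and 43.0% with the G+C scaling. The share higher at 12 hpi was 12.5% at 12 reads, 10.2% at 16 reads, 18.1% with all reads, 26.6% with 400-bp bins, 19.9% with undrawn reads, 13.7% with background scaling, 20.5% after centring, 15.1% with a pseudocount of 3, 19.8% without bins held at 0 hpi, 21.0% with runs and 8.44% with the G+C scaling. The median log2 ratio was -0.58 with all reads, 0.00 with 400-bp bins, -0.20 with undrawn reads, -0.32 with all 3 hpi reads scaled, -0.61 with background scaling, -0.31 after centring and -0.78 with the G+C scaling. In bins chosen by the 60 min library, also a choice made after seeing the data, the shares were 41.6% and 5.63% and the median -0.66, and that choice favours bins bound early. In bins chosen by the 24 hpi library they were 9.65% and 22.1%, and the median reversed to 0.18, where the choice itself favours bins bound late.

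The C/EBP consensus difference was -19.3 percentage points as reported, -14.9 at 12 reads, -11.7 at 16 reads, -25.5 with 400-bp bins, -21.7 with all 3 hpi reads scaled, -24.3 with runs and -10.8 with the G+C scaling. The class difference in the C/EBPα log2 ratio of 24 hpi over 60 min, 2.37 as reported, was 3.03 at 12 reads, 3.41 at 16 reads, 1.90 with 400-bp bins, 2.51 with undrawn reads, 2.62 with all 3 hpi reads scaled, 2.50 with background scaling, 2.54 with a pseudocount of 3 and 2.55 with the G+C scaling. That of PU.1 at 12 over 3 hpi, 0.80 as reported, was 0.92 at both 12 and 16 reads and 0.91 with all 3 hpi reads scaled. That of C/EBPβ, 0.71 as reported, was 1.5 at 12 reads, 1.68 at 16 reads, 0.88 with undrawn and with scaled reads, 0.94 with background scaling, 0.83 after centring and with a pseudocount of 3, and 1.27 with the G+C scaling. With starts within 20 kb instead of 100 kb, the listed bins numbered 737 instead of 1158, of which 192 (26.1%) instead of 267 (23.1%) were higher at 12 hpi and 176 instead of 331 higher at 3 hpi, while over all genes the shares higher at 3 and 12 hpi moved from 35.4% and 19.9% to 31.6% and 23.6%. The order of the directions turned in the lists of CSF and cytokine receptors, Fc receptors and DAP12, and proliferation, and the 2 counts were equal for lysosomal proteases (16.7% each, from 25.4% and 22.2%) and inflammatory cytokines (21.5% each). The share of chemokine bins higher at 12 hpi went from 9.09% to 15.6%.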
